A study of Mus musculus with 31 samples.

Results

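The 10 genes described here are targets of the transcription factor Nrf2 or enzymes of redox metabolism: Nqo1, Slc7a11, Gclm, Gclc, Hmox1, Txnrd1, Srxn1, Gsta4, Prdx1 and Osgin1. They were taken as a list of names and looked up by gene identifier, and all 10 were found among 29267 genes, whose RNA was sequenced in 31 libraries from 129/OG2 mouse cells. In 24 of these libraries, cells reprogrammed with OKSM (introduced Oct4, Klf4, Sox2 and Myc) carried a Tet1CD virus or, as the control taken here, a Flag virus. Each was kept with vitamin C (Vc), DKG or DMSO, the last taken as vehicle, and was collected at day 3 or day 8, which makes 12 groups of 2 libraries. Embryonic stem cells (ESC) and untreated fibroblasts (MEF, passage 2) had 2 libraries each, and MEF kept with Vc, DKG or DMSO to day 3 had 1 each. The labels spell out neither Tet1CD nor DKG and give no doses, and it is assumed that reprogramming started from MEF like those measured. The 2 libraries of each MEF and reprogramming group carry the numbers 0826 and 0824, whose meaning the labels do not give, and those of ESC carry 0822 (passage 17) and 0819 (passage 19), with the passages uncertain because the file names swap these numbers. Nothing says that equal groups came from separate cultures, so every p-value measures the spread between libraries, which may be technical. In fits that hold the number as a block, that spread is what is left once the mean difference between the numbers is taken out.

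Nrf2, encoded by Nfe2l2, is bound by Keap1, which marks it for degradation. Oxidants and electrophiles modify Keap1, and Nrf2 then accumulates, pairs with a small Maf protein and binds antioxidant response elements. Bach1, a repressor that is released by haem, occupies many of the same elements, those of Hmox1 above all. The targets make glutathione (Slc7a11 brings in cystine, Gclc and Gclm form the enzyme of the rate-limiting step) and use it (Gsta4). Others keep thioredoxin and peroxiredoxins reduced (Txnrd1, Srxn1), reduce peroxides (Prdx1, a peroxiredoxin), reduce quinones (Nqo1) and break down haem (Hmox1). Osgin1 encodes a growth inhibitor induced by oxidative stress. Because Nrf2 is controlled mainly as a protein, Nfe2l2 RNA is not a measure of its activity.

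Promoter windows, from 250 bases before to 50 bases after a start site (RefSeq, GRCm38.p6), were found for 7 of the 10 genes, and Gclc, Hmox1 and Gsta4 are named only. They were searched on both strands for the core of the antioxidant response element, TGACNNNGC, which 12.4% of 32851 promoter windows hold, and for the AP-1 motif TGANTCA, which 7.81% hold. After these hits were seen, the longer TGANTCAGC (1.19% of windows, overlapping TGANTCA by construction) and TGATGCAAA, a form of the element bound by Atf4 with C/EBP partners (0.271% of windows), were searched as well. The windows of Srxn1, Prdx1 and Osgin1 each hold TGANTCAGC, and that of Slc7a11 holds TGATGCAAA in 2 copies facing each other, at -66 and -48 from the start site. TGACNNNGC was met once each in the windows of Srxn1, Prdx1 and Gclm and once in 1 of 3 windows of Txnrd1, and no motif was found in that of Nqo1. In the Srxn1 window it is the stretch GCTAGGTCA, and in that of Prdx1 it lies on the same letters as TGANTCAGC. TGANTCA was met in the windows of Srxn1, Prdx1 and Osgin1. The 4 windows with the rarer motifs are shown 5′ to 3′ on the gene's strand, with every match in capitals, so that the shared letters can be seen beside the values of their genes. Matches are letters in a window and do not show binding.
Srxn1 (chr2:152105274-152105573, plus strand): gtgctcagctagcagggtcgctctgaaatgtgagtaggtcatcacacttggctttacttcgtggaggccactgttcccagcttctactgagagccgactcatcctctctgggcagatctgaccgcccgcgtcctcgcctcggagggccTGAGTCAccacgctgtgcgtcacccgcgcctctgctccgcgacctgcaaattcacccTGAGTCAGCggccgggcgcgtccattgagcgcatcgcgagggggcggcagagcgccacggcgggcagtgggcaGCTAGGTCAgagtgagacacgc
Prdx1 (chr4:116685349-116685648, plus strand): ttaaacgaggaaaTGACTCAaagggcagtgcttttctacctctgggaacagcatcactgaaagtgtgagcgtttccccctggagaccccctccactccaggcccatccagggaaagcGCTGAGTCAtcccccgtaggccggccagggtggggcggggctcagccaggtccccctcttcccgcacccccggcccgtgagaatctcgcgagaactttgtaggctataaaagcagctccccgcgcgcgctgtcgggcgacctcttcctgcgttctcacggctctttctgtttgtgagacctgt
Osgin1 (chr8:119436897-119437196, plus strand): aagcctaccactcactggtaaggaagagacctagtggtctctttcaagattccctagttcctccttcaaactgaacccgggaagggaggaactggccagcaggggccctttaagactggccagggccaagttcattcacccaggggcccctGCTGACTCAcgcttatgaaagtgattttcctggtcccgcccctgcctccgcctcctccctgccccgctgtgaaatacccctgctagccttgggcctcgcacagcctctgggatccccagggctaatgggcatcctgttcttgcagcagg
Slc7a11 (chr3:50443564-50443863, minus strand): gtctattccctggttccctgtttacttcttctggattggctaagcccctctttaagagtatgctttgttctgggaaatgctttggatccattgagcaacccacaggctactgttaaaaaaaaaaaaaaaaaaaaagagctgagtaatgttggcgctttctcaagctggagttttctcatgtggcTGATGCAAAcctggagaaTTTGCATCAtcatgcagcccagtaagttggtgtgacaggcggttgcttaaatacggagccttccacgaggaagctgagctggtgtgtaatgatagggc

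Libraries held between 3953251 and 6817952 counts, and all 10 genes passed the filter on low counts among 14914 genes tested. Per transcript length the genes differ widely: Prdx1 lay between 847 and 2195 TPM over the 28 fitted libraries, while Slc7a11 lay between 2.20 and 14.7 TPM and Osgin1 between 0.600 and 10.4 TPM. Osgin1 rests on 3 to 39 counts a library and is imprecise. The ESC libraries stood apart: 8 fibroblast markers summed to 10260 CPM in 0822 and 85.4 CPM in 0819 (CPM, counts scaled to a common library size, the unit of all levels given from here on), against 34360 and 32850 CPM in MEF, while 8 pluripotent markers summed to 2398 and 3461 CPM in ESC, against 1.42 and 0.215 CPM in MEF. In bulk RNA, fewer cells of a type and less RNA per cell cannot be told apart.

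**Figure D1:**
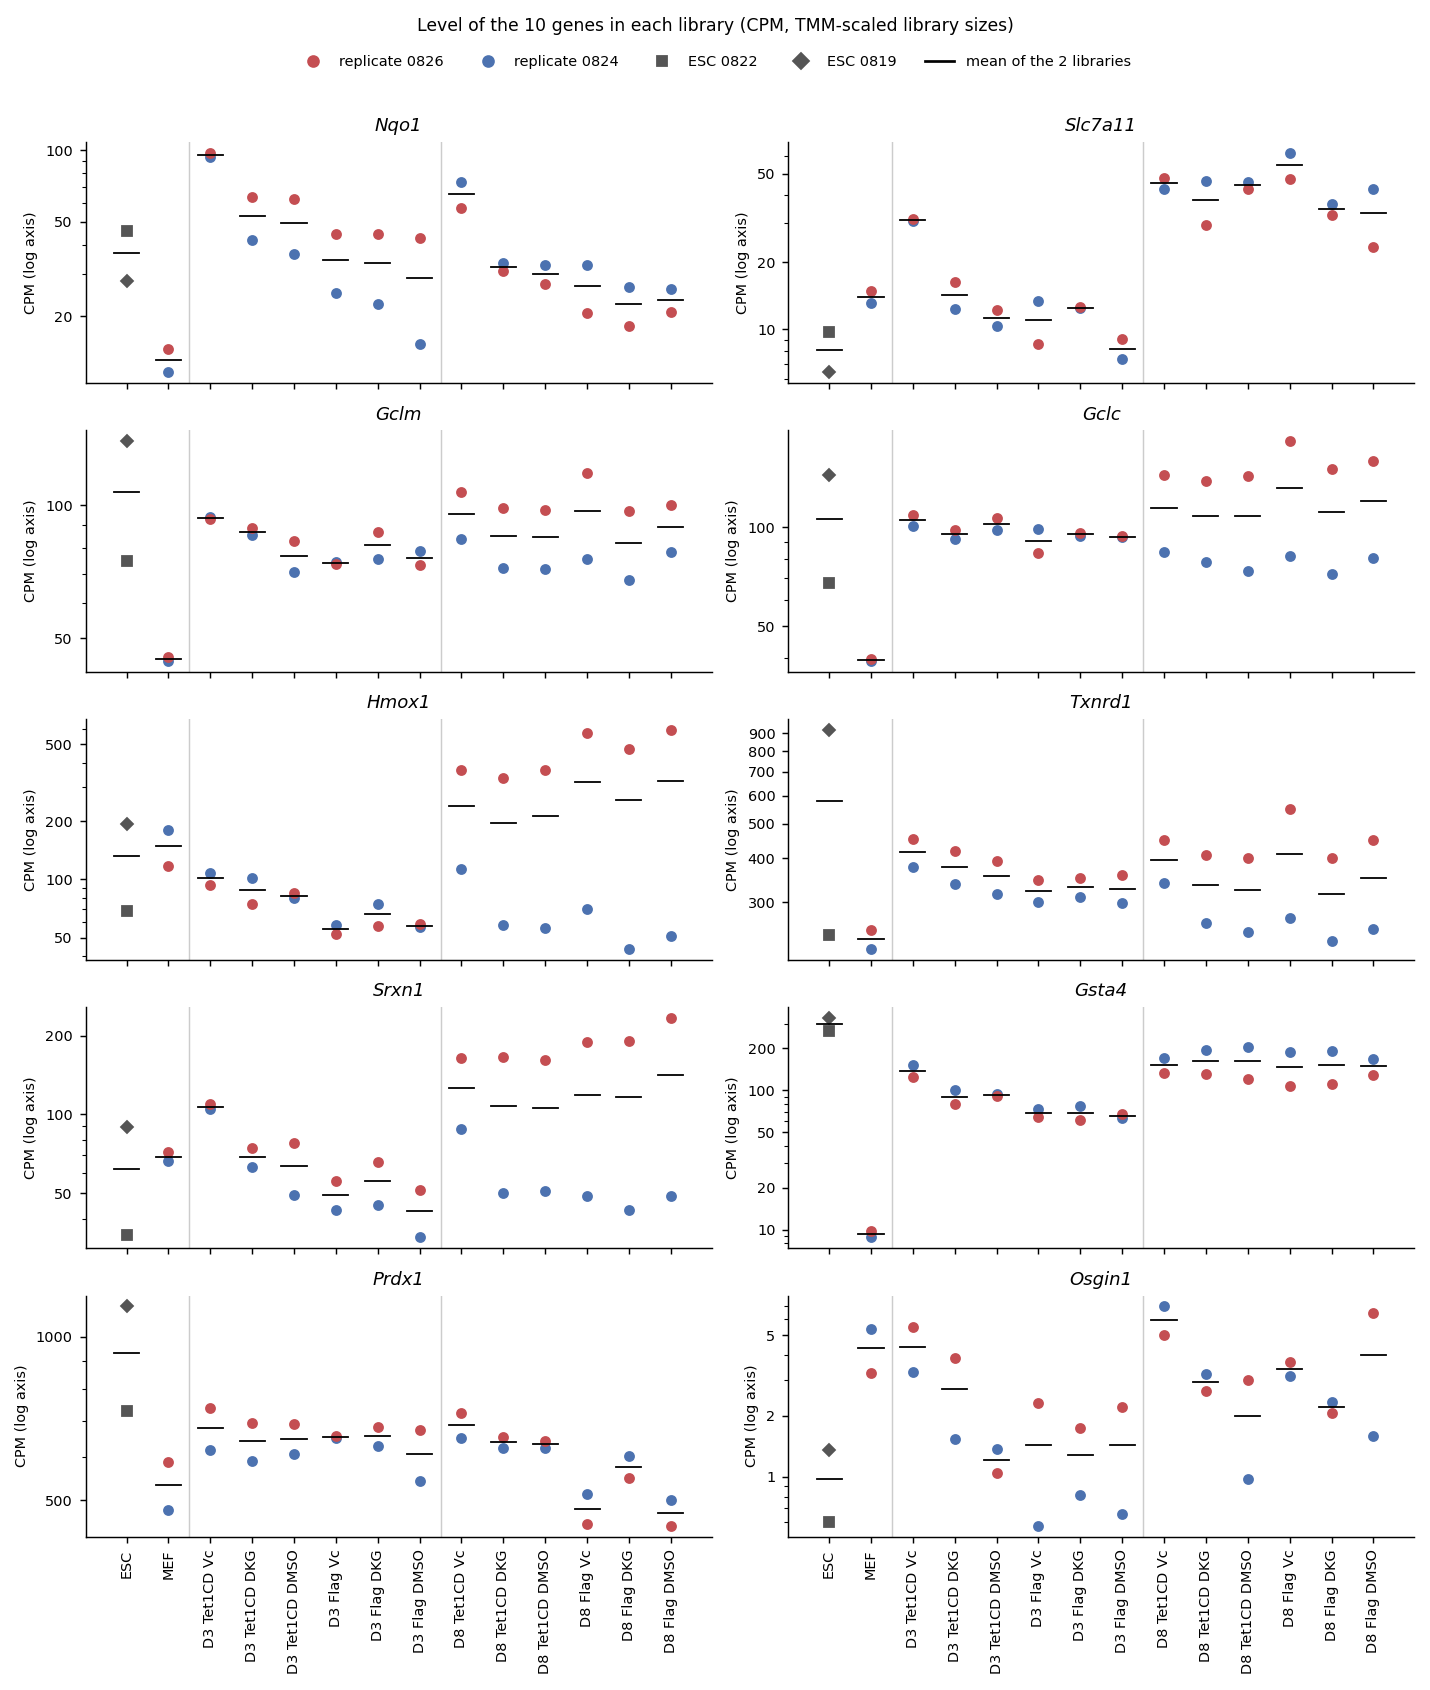
Level of each of the 10 genes in the 28 libraries with a second library (CPM, log axis); points are libraries, coloured by replicate number, and short lines are means of 2. Hmox1 at day 8 splits into 335 to 593 CPM in the libraries 0826 and 43.6 to 113 CPM in the libraries 0824.

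Gsta4, Gclm, Gclc, Prdx1, Nqo1 and Txnrd1 were higher in ESC than in MEF, and Slc7a11 and Osgin1 were lower, and 5 of these 8 calls were lost when 1 library was left out. Of the 10 genes, 8 were called at an adjusted p under 0.05 with edgeR's quasi-likelihood test, in a comparison that called 52.4% of all genes tested. Of the 10, 6 were higher in ESC, where 26.8% of all genes were, and 2 were lower, where 25.7% were. Gsta4 (chromosome 9, 78182774 to 78209349, mm10), a transferase for lipid peroxidation products, had 266 and 330.2 CPM in ESC (0822 and 0819), against 9.75 and 8.80 CPM in MEF. Its log2 fold change of 5.001 ± 0.36 (SE; adjusted p = 2.94e-08) was the largest of the 10. Prdx1 (chromosome 4, 116685544 to 116700822), an abundant peroxiredoxin, had 730.2 and 1136 CPM in ESC, against 588 and 479 CPM in MEF (0.81 ± 0.18, adjusted p = 0.00163). Gclm (chromosome 3, 122245557 to 122270732), the modifier subunit of glutamate-cysteine ligase, had 74.9 and 139 CPM in ESC, against 45.3 and 44.5 CPM in MEF (1.26 ± 0.28, adjusted p = 0.00127). These 3 genes stayed called whichever of the 4 libraries was left out.

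For the other calls, 1 library mattered. Fits without ESC 0819 rest on 0822 alone for ESC, the library with 10260 CPM of fibroblast markers, against 85.4 CPM in 0819. The part of such cells in these values was not tested. Txnrd1 (chromosome 10, 82833951 to 82897712), the cytosolic thioredoxin reductase, had 242 and 921 CPM in ESC, against 250.3 and 221 CPM in MEF. Its log2 fold change of 1.30 ± 0.47 (adjusted p = 0.0273) became 0.04 (adjusted p = 0.96) without the library 0819. Gclc (chromosome 9, 77754535 to 77794485), the catalytic ligase subunit, had 67.6 and 144 CPM in ESC, against 39.8 and 39.3 CPM in MEF. Its log2 fold change of 1.42 ± 0.46 (adjusted p = 0.0161) became 0.77 (adjusted p = 0.246) without 0819. Nqo1 (chromosome 8, 107388225 to 107403206), the quinone reductase, had 45.5 and 28.2 CPM in ESC, against 14.6 and 11.6 CPM in MEF (1.49 ± 0.46, adjusted p = 0.0115), and 1.09 (adjusted p = 0.0894) without 0822. Slc7a11 (chromosome 3, 49892526 to 50443614), the cystine transporter subunit, had 9.74 and 6.42 CPM in ESC, against 14.8 and 13.1 CPM in MEF (-0.79 ± 0.31, adjusted p = 0.0425), and -0.52 (adjusted p = 0.282) without 0819. Osgin1 (chromosome 8, 119434124 to 119446256) had 0.596 and 1.36 CPM in ESC, against 3.25 and 5.37 CPM in MEF (-2.11 ± 0.81, adjusted p = 0.0361), and -1.66 (adjusted p = 0.162) without 0822. Leaving out a MEF library also ended calls: without MEF 0824 those of Nqo1, Slc7a11, Gclc, Txnrd1 and Osgin1, with adjusted p between 0.0775 and 0.164, and without MEF 0826 those of Slc7a11, Gclc and Txnrd1, with adjusted p between 0.0743 and 0.152. Hmox1 (chromosome 8, 75093621 to 75100589), the inducible haem oxygenase, had 68.8 and 194 CPM in ESC, against 118 and 179 CPM in MEF, and Srxn1 (chromosome 2, 152105516 to 152111376), which repairs over-oxidised peroxiredoxins, had 34.6 and 89.2 CPM, against 71.7 and 66.4 CPM. Neither was called (adjusted p = 0.91 and 0.882), and their ESC and MEF libraries overlapped.

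At day 3, in Flag cells with DMSO, Gsta4 was already well above MEF. Gclm was called too, but not when any 1 of the 4 libraries was left out, and Gclc was not called. Gsta4 had 68.0 and 63.8 CPM at day 3, against 9.75 and 8.80 CPM in MEF (log2 fold change 2.82 ± 0.34, adjusted p = 2.34e-05). Gclm had 73.2 and 78.6 CPM, against 45.3 and 44.5 CPM in MEF (0.76 ± 0.28, adjusted p = 0.0473), and its call ended without each of the 4 libraries (adjusted p between 0.0954 and 0.195). These 2 genes were the calls among the 10, where 28.7% of all genes were called. Gclc had 94.2 and 93.2 CPM at day 3, against 39.8 and 39.3 CPM in MEF, with no overlap, but its log2 fold change of 1.24 ± 0.46 was not called (adjusted p = 0.0509). Nqo1 had 42.8 and 15.3 CPM, against 14.6 and 11.6 CPM in MEF (1.14 ± 0.46, adjusted p = 0.0677). Hmox1 had 58.6 and 56.7 CPM at day 3, against 118 and 179 CPM in MEF (-1.36 ± 1.17, adjusted p = 0.411). Each SE rests on 1 spread per gene shared by all 14 groups, not on these 4 libraries alone. For Gclc and Hmox1 that spread takes in the day 8 groups, where 0826 was 1.94-fold and 6.96-fold above 0824. The 13 macrophage markers, whose cells express Hmox1 strongly, summed to 17.9 and 24.3 CPM in these day 3 libraries, against 653 and 3072 CPM in MEF, and their part in the Hmox1 level was not tested.

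Between day 3 and day 8 the cystine transporter gene and Gsta4 rose, and Hmox1 and Srxn1 rose on average, with the rise lying in the libraries numbered 0826. With the mean over the 6 arms, 5 of the 10 genes were called, where 25.1% of all genes were. This fit took the 12 libraries of a day as independent. Those of the same number and day deviated together (see the correlations given with the processing), so SE and p of this comparison can be too small. Slc7a11 ranged from 23.4 to 61.8 CPM (median 42.8) over the 12 libraries of day 8, against 7.40 to 31.2 CPM (median 12.4) at day 3. It was 3.07-fold higher at day 8 (log2 1.62 ± 0.12, adjusted p = 2.01e-07). In single arms Slc7a11 was called in Tet1CD cells with DMSO, in Flag cells with Vc and in Flag cells with DMSO, in which 0.0536%, 1.26% and 1.09% of all genes were called. In Tet1CD cells with DMSO 0.0402% of all genes were called higher. Tet1CD cells with Vc had 47.6 and 42.7 CPM at day 8, against 31.2 and 30.7 CPM at day 3, the smallest difference of the 6 arms (log2 0.55, adjusted p = 0.575). Gsta4 ranged from 108 to 204 CPM (median 151) at day 8, against 60.9 to 153 CPM (median 78.8) at day 3 (log2 0.87 ± 0.12, adjusted p = 7.8e-05). Both stayed called whichever of the 24 libraries was left out. Marker lists moved over the same days: 6 of 6 epithelial, 5 of 5 keratinocyte and 7 of 8 pluripotent markers were called higher at day 8 (median log2 fold changes 3.36, 2.82 and 3.30, beside 0.01 over all genes). The epithelial markers summed to 68.8 to 387 CPM at day 8 and 13.3 to 56.0 CPM at day 3. Their part in the differences between days was not tested.

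Hmox1 was 3.45-fold higher at day 8 over all 12 libraries (log2 1.79 ± 0.48, adjusted p = 0.0113), but its day 8 libraries fell into separate ranges by number. The 6 libraries 0826 of day 8 had 335 to 593 CPM, and the 6 libraries 0824 had 43.6 to 113 CPM, while at day 3 the same numbers had 52.1 to 93.9 CPM and 56.7 to 108 CPM. Day 8 minus day 3, on log2(CPM + 1), was positive in 6 of 6 arms within 0826 (mean 2.66, SD 0.67) and in 2 of 6 within 0824 (mean -0.31, SD 0.45). Srxn1 did alike, with 161 to 234 CPM in 0826 and 43.0 to 87.7 CPM in 0824 at day 8. Its rise was positive in 6 of 6 arms within 0826 (mean 1.37, SD 0.56) and in 3 of 6 within 0824 (mean 0.02, SD 0.31). The pooled Srxn1 call (log2 0.94 ± 0.33, adjusted p = 0.0414) ended without any 1 of the 12 day 3 libraries or of the 6 day 8 libraries 0826 (adjusted p between 0.0553 and 0.125 in these 18 fits). Nqo1, called as lower at day 8 (log2 -0.53 ± 0.18, adjusted p = 0.0362), was lower in 6 of 6 arms within 0826 (mean -1.04, SD 0.17) but in 3 of 6 within 0824 (mean 0.09, SD 0.43). Its call ended in 13 of 24 fits that left out 1 library: each library 0826 of either day, and the library 0824 of Tet1CD cells with Vc at day 3 (adjusted p between 0.0534 and 0.0959). Slc7a11 was higher at day 8 in 6 of 6 arms within both numbers (means 1.34 and 1.72), and so did Gsta4 (means 0.62 and 1.04).

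**Figure D2:**
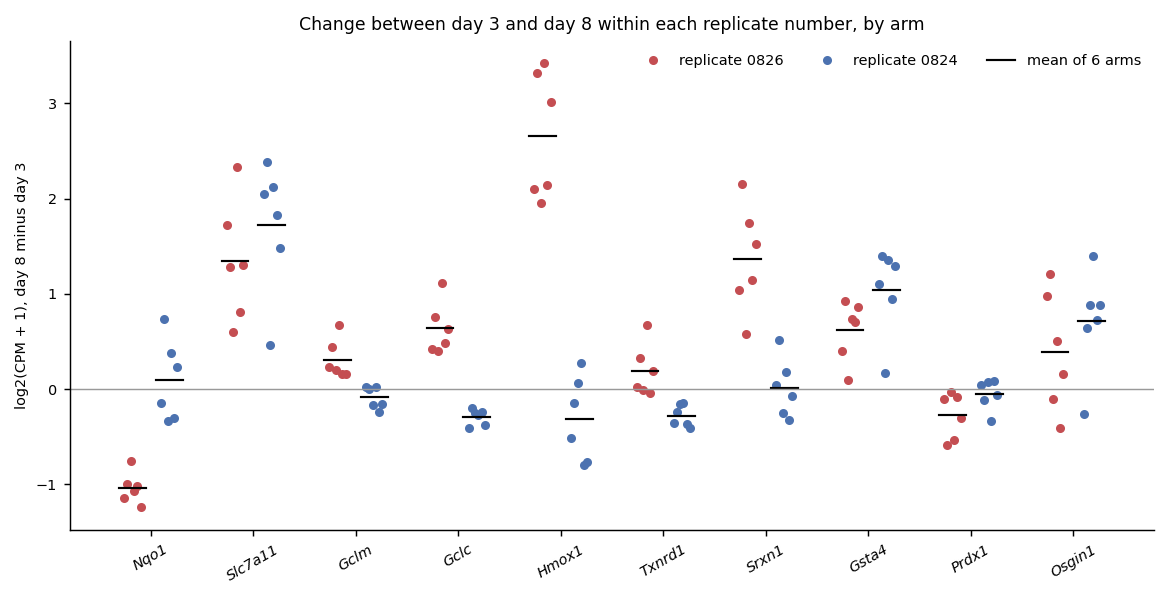
Change between day 3 and day 8 as log2(CPM + 1), day 8 minus day 3, for each of 6 arms within the libraries 0826 (red) and 0824 (blue); black lines are means over the arms. Hmox1 averages 2.66 within 0826 and -0.31 within 0824, while Slc7a11 lies above 0 in every arm of both.

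The split between numbers was then fitted as a contrast, with the replicate number as a block within each day. This compares the libraries that carry one number with those that carry the other, which is not a condition of the study, and what the numbers stand for is not given. The contrast was chosen after the split had been seen in the same values. Arms of a number stand in it as replicates of that number, so its p-values measure only the spread between arms. At day 8, Hmox1 was 6.96-fold higher in 0826 than in 0824 (log2 2.80 ± 0.16, adjusted p = 2e-10), and every arm showed it. Srxn1 was 3.39-fold higher (1.76 ± 0.12, adjusted p = 2.33e-09), Gclc 1.94-fold (0.96 ± 0.06, adjusted p = 4.77e-10), Txnrd1 1.66-fold (0.73 ± 0.06, adjusted p = 1.67e-08) and Gclm 1.38-fold (0.46 ± 0.06, adjusted p = 2.08e-06). Gsta4 had 108 to 133 CPM in 0826 and 169 to 204 CPM in 0824 (-0.60 ± 0.07, adjusted p = 7.27e-07), and Nqo1 and Slc7a11 were lower in 0826 as well (-0.36 and -0.32, adjusted p = 0.0248 and 0.0289). So 5 of the 10 were called higher and 3 lower at day 8, where 25.6% and 29.3% of all genes were, and the 10 moved in both directions. At day 3, Nqo1, Txnrd1, Srxn1, Prdx1 and Osgin1 were called higher in 0826 and none lower, where 16.3% and 16.1% of all genes were. Nqo1 had 42.8 to 97.3 CPM in 0826 and 15.3 to 93.7 CPM in 0824 at day 3 (0.74 ± 0.12, adjusted p = 0.000179).

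**Figure D3:**
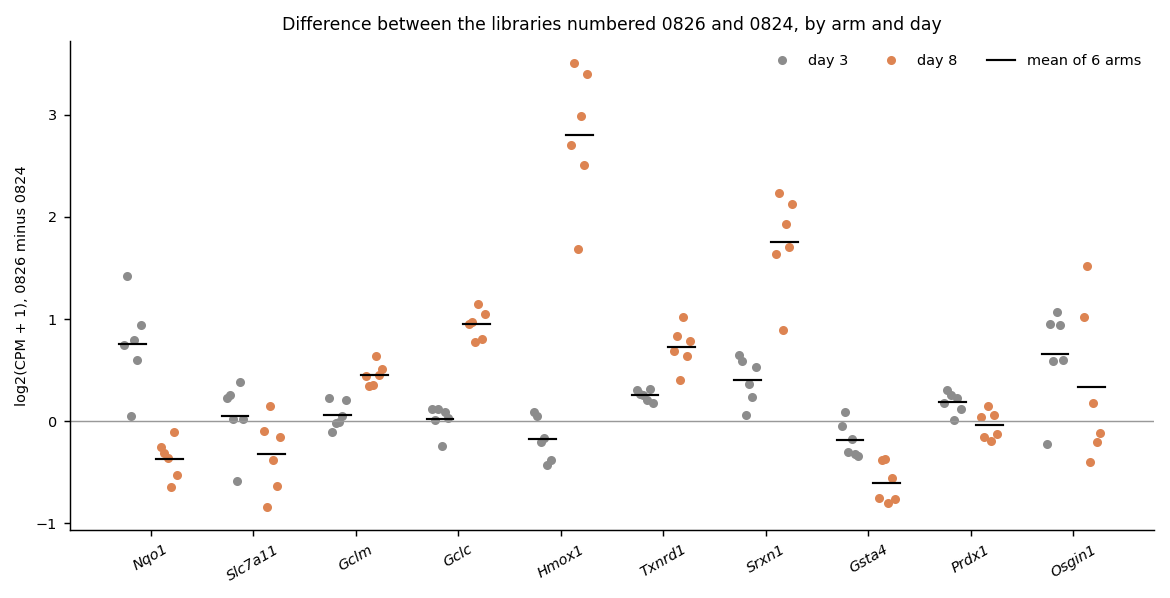
Difference between the libraries 0826 and 0824 of each arm, as log2(CPM + 1), at day 3 (grey) and day 8 (orange); black lines are means over 6 arms. At day 8 Hmox1, Srxn1, Gclc, Txnrd1 and Gclm lie above 0 in every arm and Gsta4 lies below 0.

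Other values moved with the number at day 8. Fibroblast markers summed to 4402 to 6761 CPM in 0826 and 1883 to 3069 CPM in 0824. Epithelial markers (6 genes) summed to 68.8 to 164 CPM in 0826 and 218 to 387 CPM in 0824, keratinocyte markers (5 genes) to 72.8 to 166 CPM and 90.04 to 362 CPM, and pluripotent markers to 14.7 to 95.7 CPM and 23.5 to 258 CPM. In 0826, 7 of 8 fibroblast markers were called higher, where 25.6% of all genes were. Called lower were 6 of 6 epithelial, 5 of 5 keratinocyte, 7 of 8 pluripotent and 12 of 13 macrophage markers, where 29.3% of all genes were. Macrophage markers summed to 29.4 to 103 CPM in 0826, and to 24.1 to 83.7 CPM in 5 of the libraries 0824, so these sums overlapped. Laptm5, the marker not called, averaged 44.97 CPM in 0826. The remaining library, 0824 of Tet1CD cells with Vc, stood apart at 1608 CPM, and its Hmox1 level of 113 CPM was the highest among the libraries 0824 of that day. The part of these cell types in the results was not tested. Of 10 regulators of the Nrf2 pathway tested, 7 were called higher and 1 lower in 0826 at day 8. Bach1 RNA had 81.7 to 128 CPM in 0826 and 41.2 to 52.3 CPM in 0824, and Maff, a small Maf partner, averaged 80.9 CPM and 30.01 CPM (log2 1.40 ± 0.12, adjusted p = 2.64e-08). Nfe2l2 had 169 to 192 CPM in 0826 and 127 to 162 CPM in 0824, and Keap1 57.2 to 71.2 CPM and 65.2 to 87.9 CPM.

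Between ESC and day 8 cells, 4 of the 10 genes were called, where 52% of all genes were, so the 10 were not called more often than others. In ESC 2 were higher and 2 lower, where 27.6% and 24.3% of all genes were. Here too ESC 0822 is the library with 10260 CPM of fibroblast markers, and their part was not tested. The day 8 libraries were again taken as independent, as in the comparison of the days, so SE and p can be too small. Slc7a11 had 9.74 and 6.42 CPM in ESC, against 23.4 to 61.8 CPM at day 8 (log2 -2.34 ± 0.27, adjusted p = 1.66e-06), and the groups did not overlap. Gsta4 had 266 and 330.2 CPM in ESC, against 108 to 204 CPM at day 8 (0.95 ± 0.21, adjusted p = 0.0011). Prdx1 had 730.2 and 1136 CPM, against 449 to 723 CPM (0.69 ± 0.13, adjusted p = 0.00028). Prdx1 was 0.34 (adjusted p = 0.08) without ESC 0819. Osgin1 was called as lower in ESC (-1.66 ± 0.68, adjusted p = 0.0497) and lost the call in 12 of 14 fits without 1 library (adjusted p between 0.0509 and 0.254). The exceptions were the day 8 libraries 0824 of Tet1CD cells with DMSO and of Flag cells with DMSO.

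At day 3, the mean over the 3 media was higher in Tet1CD than in Flag cells for all 10 genes, with the largest log2 fold change for Nqo1, and Nqo1 was again higher in Tet1CD at day 8. Nqo1 ranged from 36.5 to 97.3 CPM (median 62.9) in the 6 Tet1CD libraries of day 3, against 15.3 to 44.4 CPM (median 33.9) in Flag. Slc7a11 ranged from 10.3 to 31.2 CPM (median 14.3) in Tet1CD, against 7.40 to 13.4 CPM (median 10.7) in Flag. Hmox1 had 74.99 to 108 CPM in Tet1CD and 52.1 to 74.8 CPM in Flag, and Gsta4 had 80.3 to 153 CPM in Tet1CD and 60.9 to 77.2 CPM in Flag. For Hmox1 and Gsta4 the groups did not overlap, but for Hmox1 the nearest libraries lay at 74.99 CPM in Tet1CD and 74.76 CPM in Flag. How many of all genes did not overlap was not counted, here or in the other comparisons. In the fit without a replicate term none of the 10 was called, where 0.697% of all genes were. There 3 of the 10 had an unadjusted p under 0.05, as had 1162 of the 14914 genes tested, and DESeq2 called 3 of the 10 and 207 genes in all. Nqo1 had a log2 fold change of 0.96 ± 0.25 (adjusted p = 0.111), Slc7a11 of 0.71 ± 0.18 (adjusted p = 0.0845) and Gsta4 of 0.63 ± 0.17 (adjusted p = 0.146).

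Libraries of the same number and day deviated together (see the correlations given with the processing), so the comparison was also made within numbers. With the replicate block within each day, 6 of the 10 were called higher in Tet1CD at day 3 and none lower, where 9.15% and 5.62% of all genes were. The log2 fold changes were 1.02 ± 0.12 for Nqo1 (adjusted p = 1.83e-05), 0.63 ± 0.07 for Gsta4 (adjusted p = 1.05e-05), 0.71 ± 0.15 for Slc7a11 (adjusted p = 0.00355) and 0.68 ± 0.13 for Srxn1 (adjusted p = 0.00188). These 4 stayed called in 12 of 12 fits that left out 1 library. Hmox1 (0.60 ± 0.17, adjusted p = 0.0219) and Txnrd1 (0.22 ± 0.06, adjusted p = 0.0192) stayed called in 6 of 12 each, with adjusted p up to 0.0745 and 0.0852 in the others. Nqo1 was higher in Tet1CD in 3 of 3 media within 0826 (mean 0.72) and in 3 of 3 within 0824 (mean 1.31), and Gsta4, Hmox1, Srxn1 and Txnrd1 likewise. Gclm, Gclc and Prdx1, with log2 fold changes between 0.04 and 0.15, and Osgin1, with 0.85 ± 0.39, were not called.

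The macrophage markers moved with the virus at day 3: they summed to 33.9 to 159 CPM in Tet1CD and 17.9 to 24.3 CPM in Flag, with 0 to 3 of 13 markers at 0 counts in a Tet1CD library and 1 to 4 in a Flag library. All 13 had a positive log2 fold change (median 1.72, beside -0.01 over all genes), and 4 were called higher with the block. In Tet1CD cells with Vc, against Flag cells with Vc, Laptm5 averaged 69.3 CPM against 11.4 CPM, Cd68 24.6 CPM against 4.70 CPM and Lyz2 17.8 CPM against 3.27 CPM. Adgre1, C1qa and Ptprc, of the same marker list, were low, at 1.02, 1.09 and 0.508 CPM in Tet1CD cells with Vc, and Ptprc had 0 counts in Flag cells with Vc. Keratinocyte markers (5 genes) summed to 32.7 to 66.9 CPM in Tet1CD and 15.1 to 41.3 CPM in Flag, and fibroblast markers to 3288 to 5230 CPM and 2001 to 4675 CPM, with 1 of 5 and 5 of 8 called higher with the block. Their part in the differences was not tested.

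**Figure D4:**
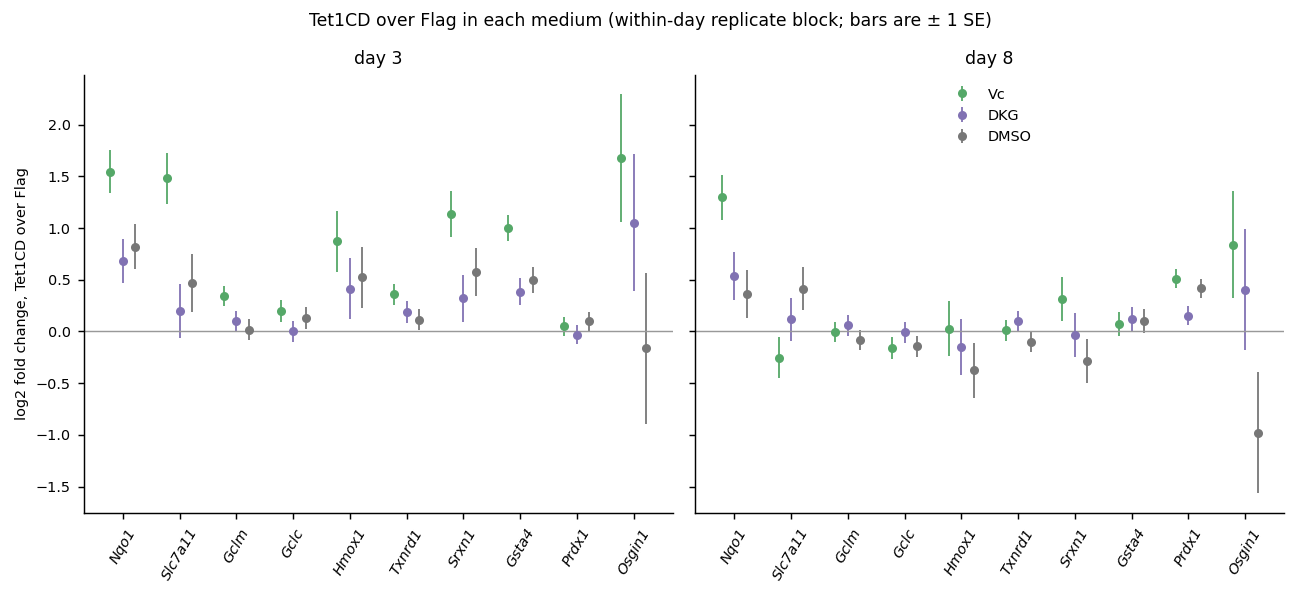
Log2 fold change of Tet1CD over Flag in each medium at day 3 and day 8 from the fit with a replicate block within each day; points are estimates and bars are ± 1 SE. With Vc at day 3, Nqo1 lies at 1.54 and Slc7a11 at 1.48.

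The difference was largest with Vc. In Tet1CD cells with Vc at day 3, Nqo1 had 97.3 and 93.7 CPM, against 44.3 and 25.1 CPM in Flag cells with Vc. Slc7a11 had 31.2 and 30.7 CPM in Tet1CD cells with Vc, against 8.61 and 13.4 CPM in Flag cells with Vc, and was called without a replicate term (log2 1.49 ± 0.30, adjusted p = 0.0309), where 0.483% of all genes were. Srxn1 had 109 and 105 CPM in these Tet1CD libraries, against 55.8 and 43.0 CPM in Flag. With the block, 6 of the 10 were called higher with Vc, where 9.33% of all genes were, and none with DKG or DMSO, where 0.402% and 0.483% were. Whether the effect of Tet1CD differed between Vc and DMSO was tested as an interaction, and none of the 10 was called at day 3 or day 8, where 0.101% and 0.0201% of all genes were. At day 3, 1 of the 10 had an unadjusted p under 0.05 in that test (216 of all genes), at day 8 none had (253 of all genes), and DESeq2 called none. With the block, 4 of the 10 had an unadjusted p under 0.05 at day 3 (1569 of all genes) and 3 at day 8 (1462 of all genes). None of the 10 was called with it, where 0.409% and 0.127% of all genes were. For Slc7a11 at day 3 the interaction was 1.02 ± 0.44 on the log2 scale (adjusted p = 1, and 0.32 with the block), so a difference between media is not shown.

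At day 8, Nqo1 ranged from 27.5 to 73.8 CPM (median 33.3) in Tet1CD, against 18.2 to 32.8 CPM (median 23.5) in Flag (0.73 ± 0.25, adjusted p = 0.204). Prdx1 had 624 to 723 CPM in Tet1CD and 449 to 602 CPM in Flag, with no overlap (0.36 ± 0.11, adjusted p = 0.108). Without a replicate term none of the 10 was called, where 1.76% of all genes were and 1.53% were higher in Tet1CD. Of the 10, 2 had an unadjusted p under 0.05, as had 1828 of all genes, and DESeq2 called 1 of the 10 and 469 genes in all. With the block both were called, Nqo1 at adjusted p = 0.000612 and Prdx1 at adjusted p = 0.000113, where 10.5% of all genes were called higher, and both stayed called in 12 of 12 fits without 1 library. Hmox1 went opposite ways in the 2 numbers at day 8. Within 0826 it had 335 to 369 CPM in Tet1CD and 470 to 593 CPM in Flag, and was lower in Tet1CD in 3 of 3 media (mean -0.60). Within 0824 it had 55.8 to 113 CPM in Tet1CD and 43.6 to 70.6 CPM in Flag, and was higher in 3 of 3 (mean 0.40). Srxn1 likewise was lower in Tet1CD in 3 of 3 media within 0826 (mean -0.31) and higher in 3 of 3 within 0824 (mean 0.37). The change of the Tet1CD effect between days was called for none of the 10 without a replicate term, where 0.295% of all genes were (0.288% up and 0.00671% down), with 3 at an unadjusted p under 0.05 (987 of all genes) and none by DESeq2 (166 of all genes). With the block it was called for 5, where 10.7% of all genes were, and these are given further on.

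Markers of other cell types moved with the virus at day 8 as well. The macrophage markers summed to 58.0 to 1608 CPM in Tet1CD and 24.1 to 41.0 CPM in Flag, and with the block 6 of 13 were called higher in Tet1CD and none lower. The keratinocyte markers summed to 72.8 to 244 CPM in Tet1CD and 116 to 362 CPM in Flag, with 4 of 5 called lower. The pluripotent markers summed to 23.2 to 258 CPM in Tet1CD and 14.7 to 204 CPM in Flag, with 6 of 8 called higher. The highest Nqo1 level of the day, 73.8 CPM, was that of the library with 1608 CPM of macrophage markers, 0824 of Tet1CD cells with Vc. Its fellow 0826 had 103 CPM of these markers and 57.3 CPM of Nqo1, which is also above the Flag range. The part of these cell types in the Nqo1 and Prdx1 differences was not tested.

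Vitamin C went with higher Nqo1 in Tet1CD cells on both days. In Tet1CD cells Nqo1 had 97.3 and 93.7 CPM with Vc at day 3, against 62.0 and 36.5 CPM with DMSO, and at day 8 it had 57.3 and 73.8 CPM with Vc, against 27.5 and 33.0 CPM with DMSO. In Flag cells it had 44.3 and 25.1 CPM with Vc at day 3, against 42.8 and 15.3 CPM with DMSO, and at day 8 it had 20.6 and 32.8 CPM with Vc, against 20.9 and 26.1 CPM with DMSO. Over both viruses and without a replicate term none of the 10 was called at day 3 or day 8, where 0.121% and 0.201% of all genes were. At day 3, 1 of the 10 had an unadjusted p under 0.05 (428 of all genes) and DESeq2 called 1 (56 of all genes), and at day 8 both counts were 0 (910 and 96 of all genes). With the block 2 were called at day 3, where 2.61% of all genes were: Slc7a11 (0.94 ± 0.19, adjusted p = 0.00688) and Nqo1 (0.67 ± 0.15, adjusted p = 0.019). At day 8, Nqo1 (0.65 ± 0.16, adjusted p = 0.0149) and Txnrd1 (0.26 ± 0.07, adjusted p = 0.0323) were called, where 8.28% were. Each of these calls was lost in 3 to 5 of 8 fits that left out 1 library (adjusted p up to 0.141 at day 3 and 0.269 at day 8). Taken by virus with the block, Vc raised Nqo1, Slc7a11 and Gsta4 in Tet1CD cells at day 3 (1.03 ± 0.20, 1.45 ± 0.25 and 0.57 ± 0.12, adjusted p = 0.00705, 0.00193 and 0.0134), where 2.41% of all genes were called, and none of the 10 in Flag cells, where 0.784% were. That viruses differed in this is not shown, since the interaction given above is the same test. Markers moved with Vc at day 8: with the block 8 of 8 pluripotent and 5 of 6 epithelial markers were called higher with Vc, and 5 of 8 fibroblast markers lower. All 13 macrophage markers had a positive log2 fold change (median 3.25, beside 0.00 over all genes) and 2 were called, with the library at 1608 CPM among the 4 with Vc. At day 3, 3 of 8 fibroblast markers were called lower with Vc, and no pluripotent or macrophage marker was called. The part of these cell types was not tested.

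With DKG none of the 10 was called. At day 3, the log2 fold changes over DMSO lay between -0.04 (Gclc) and 0.51 (Osgin1), and at day 8 between -0.22 (Hmox1) and 0.15 (Prdx1). No gene of all those tested was called by edgeR's quasi-likelihood test with DKG on either day (0%, with 52 and 86 genes at an unadjusted p under 0.05), and the block called none either. Of the 10, 1 had an unadjusted p under 0.05 at day 3 and none at day 8, and DESeq2 called none. The gene with the lowest p at day 3 was Slc7a11, with 16.4 and 12.3 CPM in Tet1CD cells and 12.7 and 12.4 CPM in Flag cells with DKG, against 12.3 and 10.3 CPM and 9.03 and 7.40 CPM with DMSO (0.48 ± 0.22, adjusted p = 1). Without a replicate term the SE of Hmox1 was 0.82 at day 3, so that fit tests the gene with little precision. It takes 1 spread per gene over all 14 groups, among them those of day 8, whose Hmox1 levels split by number.

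MEF kept with the compounds had 1 library each, so these are values with no test. Slc7a11 had 5.99 CPM with Vc and 21.97 CPM with DKG, against 27.99 CPM with DMSO, while untreated MEF had 14.8 and 13.1 CPM. Gsta4 had 21.5 CPM with Vc and 9.58 CPM with DKG, against 9.52 CPM with DMSO. Nqo1 had 16.4 CPM with Vc and 10.4 CPM with DKG, against 8.36 CPM with DMSO. Hmox1 lay between 109 and 130 CPM in the 3 libraries. For the DKG library the title and the treatment field name different compounds, so its identity is uncertain.

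Around the 10 genes, lists of the wider pathway were counted in the same tests. Of 16 detoxification and export genes tested, 2 were called higher in Tet1CD than in Flag at day 3 without a replicate term, where 0.677% of all genes were, and none lower: Ptgr1, a reductase of leukotrienes and alkenals, averaged 47.8 CPM in Tet1CD and 16.3 CPM in Flag (log2 1.39 ± 0.23, adjusted p = 0.00474), and Aox1, aldehyde oxidase, averaged 26.02 CPM and 13.4 CPM (0.93 ± 0.21, adjusted p = 0.0412). With the block 9 of these 16 were called higher, and 8 of 16 glutathione transferases, where 9.15% of all genes were. The list medians without the block were 0.41 and 0.32, beside -0.01 over all genes and 0.62 over the 10. Gpx3, a secreted glutathione peroxidase, was the only call of 13 genes of glutathione synthesis and use (65.6 CPM in Tet1CD and 18.5 CPM in Flag, 1.64 ± 0.34, adjusted p = 0.0283). Of 10 regulators none was called without a replicate term, and Nfe2l2 and Sqstm1 were with the block (adjusted p = 0.000374 and 1.26e-05). Nfe2l2 averaged 173 CPM in Tet1CD and 140 CPM in Flag. At day 8 Ptgr1 was again called (27.6 CPM in Tet1CD and 11.3 CPM in Flag, 1.15 ± 0.23, adjusted p = 0.013). With Vc at day 8, Gstp1, a glutathione transferase, was the 1 call of all these lists (157 CPM with Vc and 107 CPM with DMSO, 0.54 ± 0.10, adjusted p = 0.0277).

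The same lists changed in both directions along reprogramming. At day 3, in Flag cells with DMSO against MEF, 6 of 16 detoxification genes were called higher and 5 lower, where 14.8% and 13.9% of all genes were. Aldh3a1, an aldehyde dehydrogenase, averaged 158 CPM at day 3 and 0.322 CPM in MEF (8.87 ± 0.97, adjusted p = 9.54e-06). Of 10 Atf4 targets in the same test, 4 were lower and 1 higher, with Trib3 at 1.96 CPM, against 41.2 CPM in MEF (-4.37 ± 0.64, adjusted p = 0.00012). At day 8 against day 3, where 14.4% of all genes were called higher and 10.7% lower, 7 of 16 glutathione transferases were called higher and 1 lower, with Gstt1 at 4.88 CPM at day 8, against 1.04 CPM at day 3 (2.10 ± 0.48, adjusted p = 0.00385), and 5 of 13 thioredoxin and peroxiredoxin genes were lower and 1 higher, with Prdx6 at 123 CPM, against 198 CPM (-0.69 ± 0.12, adjusted p = 0.000637). NADPH supply was called lower in 4 of 12 genes and higher in none in that test, with Me1, malic enzyme, at 179.5 CPM at day 8, against 249.8 CPM at day 3 (-0.48 ± 0.10, adjusted p = 0.00158). In ESC against MEF, 6 of the 12 NADPH genes were higher and 2 lower, where 26.8% and 25.7% of all genes were, and Gsr, glutathione reductase, averaged 183 CPM in ESC and 29.6 CPM in MEF (2.62 ± 0.27, adjusted p = 1.14e-06). Gpx2, a glutathione peroxidase of epithelia, averaged 55.9 CPM in ESC and had 0 counts in both MEF libraries. For lists on which the number bears, the means over arms hold both numbers: Gstt1 averaged 8.24 CPM in 0826 and 1.51 CPM in 0824 at day 8.

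The genes whose pattern was most like each of the 10 over the 28 libraries are given as a description, since all pairs share the same libraries and their numbers. Gclm was nearest to Gclc (Pearson r = 0.921 of log2(CPM + 1)), and Gclc to Scube3 (0.923) and then Gclm. Hmox1 was nearest to Bach1 (0.932) and to Gfpt2 (0.928), and Srxn1 to Hmox1 (0.915) and Xirp1 (0.902). Txnrd1 was nearest to Nfe2l2 (0.884) and Gclm (0.854). Gsta4 was nearest to Upp1 (0.966) and L1td1 (0.954), and Slc7a11 to Adam23 (0.896) and Upk3bl (0.89). Nqo1 was nearest to Trpc5os (0.853) and Gm28893 (0.841), Prdx1 to Prim2 (0.907) and Adss (0.904), and Osgin1 to Adssl1 (0.731) and Tpst2 (0.723). Of the 4 promoters printed above, those of Srxn1, Prdx1 and Osgin1 share TGANTCAGC. At day 3 these 3 genes were called higher in 0826 than in 0824, by 0.40 (adjusted p = 0.0279), 0.18 (adjusted p = 0.0132) and 1.05 ± 0.38 (adjusted p = 0.0432) on the log2 scale. In that contrast 16.3% of all genes were called higher. Nqo1 (0.74, adjusted p = 0.000179) and Txnrd1 (0.26, adjusted p = 0.00307), whose windows lack TGANTCAGC, were called higher too, so the call is not particular to genes with this motif. At day 8 Srxn1 was called, at 1.76, and Prdx1 (-0.03, adjusted p = 0.613) and Osgin1 (0.41 ± 0.32, adjusted p = 0.304) were not, and no test compared the genes with each other.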

How the data were processed

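Per the labels' protocols, Trizol was used for RNA, 1 ug of which went into each TruSeq library. Bowtie and RSEM were used with mm10, per the submitters' processing notes; for versions, trimming and annotation, nothing is given in the sources used here. The deposited tables hold the authors' expected counts and TPM per gene, per the file headers. Among the 10 genes, only Slc7a11, Gclm and Prdx1 had counts with a fractional part, at most 1.12% of the count. Strand was not stated, so reads of overlapping antisense genes cannot be told apart.

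The deposited expected counts were rounded. Of 29267 identifiers, 28756 matched GENCODE M21. Totals ran from 3953251 to 6817952, and intervals from counting cover counting error only. Levels are CPM over library sizes scaled by TMM; the authors' TPM served to compare genes. edgeR's quasi-likelihood test (edgeR 4.0.16, limma 3.58.1, R 4.3.3) was run two-sided on 28 libraries in 14 groups and 14914 genes passing filterByExpr, with Benjamini-Hochberg adjustment within each of 34 contrasts and a call at an adjusted p under 0.05. SE is the fold change over the root of F. The members, lists and contrasts were chosen with earlier results of these data known; named genes of a list are called ones of largest fold change, and some were picked from these after their values were seen. Alternatives were DESeq2 1.42.0, median-of-ratios size factors, no filter, replicate blocks, the 24 reprogramming libraries alone and leaving out each library. On simulated counts for Vc against DMSO at day 8 (14679 genes), 49% of 100 genes changed by log2 1 and 88% of 100 changed by log2 2 were called.

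Whether numbers pair libraries was checked by taking 0826 minus 0824 in each group and correlating these differences between groups, across genes. The correlations were 0.388 to 0.58 between day 3 groups (15 pairs), 0.379 to 0.749 between day 8 groups (15), -0.013 to 0.193 across days (36) and -0.0109 to 0.331 with MEF (12). The numbers therefore pair libraries within a day, and the block within each day is printed where it changes a call for the virus or the medium. Across days and against MEF or ESC the fit without a block is used, because a block would remove the spread between numbers on which these comparisons rest. That fit takes libraries of the same number and day as independent, so SE and p for means over arms of a day can be too small.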

Additional observations from a re-analysis of the deposited data

Results flagged for a closer look

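With the block within each day, a test of the difference itself called a change of the Tet1CD effect (over Flag) from day to day for 5 of the 10 genes, where 10.7% of all genes were called. The effect fell for 4 of the 10 and rose for 1, where 5.84% and 4.87% of all genes were called. On the log2 scale, day 8 minus day 3, it changed by -0.62 for Slc7a11 (adjusted p = 0.0454), -0.77 for Hmox1 (adjusted p = 0.0379), -0.68 for Srxn1 (adjusted p = 0.0205), -0.53 for Gsta4 (adjusted p = 0.00169) and 0.32 for Prdx1 (adjusted p = 0.00935). Gsta4 and Prdx1 stayed called in 24 of 24 fits that left out 1 library, Srxn1 in 21, Hmox1 in 9 and Slc7a11 in 3, with adjusted p up to 0.153. For Hmox1 and Srxn1 the Tet1CD effect at day 8 had opposite signs in the libraries 0826 and 0824, as given above.

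The difference between the libraries 0826 and 0824 also changed between days, in the same kind of test, for 8 of the 10 genes, where 42.7% of all genes tested were called. Day 8 minus day 3, it rose by 2.98 for Hmox1 (adjusted p = 2.79e-08), 1.36 for Srxn1 (adjusted p = 1.07e-05), 0.94 for Gclc (adjusted p = 1.51e-07), 0.47 for Txnrd1 (adjusted p = 0.000219) and 0.40 for Gclm (adjusted p = 0.000612). It changed by -1.10 for Nqo1 (adjusted p = 8.98e-05), -0.42 for Gsta4 (adjusted p = 0.00247) and -0.22 for Prdx1 (adjusted p = 0.0268). The p-values rest on 6 arms of 2 numbers and measure the spread between arms.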

How the results depend on the processing

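Counts are of the 10 genes called. Where no share of all genes stands beside a count, it does not show whether the 10 moved more than other genes. For Flag cells with DMSO at day 3 against MEF (2 called), median-of-ratios size factors gave 1, no filter 4, the replicate block 6 and the replicate block within each day 9, where that block called 56% of all genes. The block within each day gave 9 for day 8 against day 3 (5 called) and 8 for ESC against day 8 (4 called), where it called 52.7% and 71.9% of all genes. From 0 called, the block within each day gave 2 for Vc at day 3 and 2 at day 8, where it called 2.61% and 8.28% of all genes. For Tet1CD it gave 6 at day 3, 2 at day 8 and 5 for the change between days, where it called 14.8%, 21.5% and 10.7% of all genes. DESeq2 gave 1 for Vc at day 3, and for Tet1CD 3 at day 3 and 1 at day 8. For Tet1CD, no filter gave 1 and the replicate block 3 at day 3, and at day 8 the replicate block and the 24 reprogramming libraries alone gave 1 each. Counts under the other settings were within 1.5 times of those reported.

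Leaving out 1 library gave 3 to 6 for ESC against MEF (8 called), 1 to 2 for day 3 against MEF, 3 to 6 for day 8 against day 3, 2 to 5 for ESC against day 8, 0 to 1 for Tet1CD at day 3, with the 1 without Flag cells with DMSO 0826, and 0 to 0 for the other comparisons. With the block within each day, chosen as a base for this after seeing the data, leaving out 1 library gave 4 to 6 for Tet1CD at day 3, 2 to 3 at day 8, 2 to 5 for its change between days, 0 to 3 for Vc at day 3 and 0 to 4 at day 8. No called fold change turned its direction under any setting. Among called fold changes, Slc7a11 in ESC against MEF was lost with DESeq2 and with no filter, Gclm at day 3 against MEF with DESeq2 and with median-of-ratios size factors, and Osgin1 in ESC against day 8 with those size factors and with no filter. Depth limits Osgin1 most, at 3 to 39 counts a library. The causes of these changes were not tested.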
